A study of Mus musculus with 2 samples.

Results

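The cells described here are the M2 macrophages with low Cx3cr1 from regenerating mouse muscle, a label that the study's authors gave to single cells after clustering them together with many other muscle datasets. Members were the barcodes that carry this label in the deposited cell tables. There were 347 of them among 6879 cells with a cell type, 242 at day 2 and 105 at day 7 after injury. All of them met the quality limits applied to every cell. The 2 libraries were 10x Genomics single-cell libraries of dissociated tibialis anterior muscle injured with notexin, a snake venom toxin that destroys muscle fibres. The strain is C57Bl/6 in the sample labels and C57BL/6J in the cell table, which gives 1 mouse per library. The sample labels give both as females of 7 months, whereas the cell table gives males aged 4 months at day 2 and 7 months at day 7. With 1 mouse per time point there was no replicate, so no difference between days was tested, and time, age as the cell table gives it, mouse and library cannot be told apart. Intervals below are 95% intervals that cover counting error only.

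Macrophages clear debris after muscle injury and later release factors that act on muscle stem cells, fibroblasts and vessels. The fractalkine receptor Cx3cr1 is commonly used to separate monocyte-derived macrophages, in which it often increases as they mature, from other macrophage states. Cd163, Mrc1 and Folr2 are endocytic receptors that are typical of tissue macrophages around vessels and in connective tissue, where they take up haemoglobin complexes, glycoproteins and folate.

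A set of 5 marker genes describes the label, and the bases before their start sites are shown because the check of the label turns on these genes. Cd163 encodes the scavenger receptor for haptoglobin-haemoglobin complexes, Ccl8 a chemokine, Cbr2 a carbonyl reductase, Mrc1 the mannose receptor and Folr2 folate receptor beta. In GRCm38, the genes lie at chr6:124304656-124330527 for Cd163, chr11:82115185-82116799 for Ccl8, chr11:120729489-120732114 for Cbr2, chr2:14229392-14332057 for Mrc1 and chr7:101839988-101857194 for Folr2. Each sequence is the 250 bases before the start of the RefSeq transcript (GRCm38.p6), 5′ to 3′ on the strand of the gene, and ends 0 to 93 bases from the start of the gene in GENCODE. Capitals mark matches to 6 motifs, searched on both strands with no overlap among the matches found. The half-site of the Maf recognition element is TGCTGA. The letters used for the myeloid factor PU.1 were GGAAGT. For NF-kB the search was for GGGA followed by any 4 bases and then CC. The other letters searched were TGANTCA for AP-1, TTGCNNAA for the C/EBP factors and TATAAA for the TATA box.
Cd163, chr6:124304401-124304650, plus strand: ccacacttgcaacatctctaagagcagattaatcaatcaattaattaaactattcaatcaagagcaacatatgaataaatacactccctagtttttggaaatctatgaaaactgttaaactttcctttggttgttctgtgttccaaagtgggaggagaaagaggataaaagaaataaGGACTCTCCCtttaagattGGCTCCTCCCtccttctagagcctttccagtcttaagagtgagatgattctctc
Ccl8, chr11:82114935-82115184, plus strand: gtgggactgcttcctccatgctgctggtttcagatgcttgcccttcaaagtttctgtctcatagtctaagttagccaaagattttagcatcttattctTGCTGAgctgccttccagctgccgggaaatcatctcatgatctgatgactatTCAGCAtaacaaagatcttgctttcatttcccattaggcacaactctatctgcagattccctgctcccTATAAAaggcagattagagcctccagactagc
Cbr2, chr11:120732022-120732271, minus strand: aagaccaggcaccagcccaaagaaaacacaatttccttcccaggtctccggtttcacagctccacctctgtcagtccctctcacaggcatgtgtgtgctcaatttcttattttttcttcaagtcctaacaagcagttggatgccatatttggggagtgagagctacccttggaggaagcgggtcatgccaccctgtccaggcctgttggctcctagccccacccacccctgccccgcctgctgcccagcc
Mrc1, chr2:14229164-14229413, plus strand: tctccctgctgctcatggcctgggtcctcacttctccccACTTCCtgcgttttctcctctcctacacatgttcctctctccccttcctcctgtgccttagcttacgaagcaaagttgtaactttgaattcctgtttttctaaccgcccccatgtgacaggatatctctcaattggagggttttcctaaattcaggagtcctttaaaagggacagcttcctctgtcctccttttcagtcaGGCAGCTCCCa
Folr2, chr7:101857191-101857440, minus strand: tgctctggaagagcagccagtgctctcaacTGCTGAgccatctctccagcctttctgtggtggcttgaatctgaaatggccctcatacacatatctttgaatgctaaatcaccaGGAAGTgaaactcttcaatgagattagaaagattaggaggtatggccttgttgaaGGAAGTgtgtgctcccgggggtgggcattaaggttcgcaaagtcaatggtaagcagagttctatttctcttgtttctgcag
The Maf half-site lay in the windows of Ccl8 and Folr2, 2 of 5 markers, and in 16.1% of 32851 promoter windows of the same length. PU.1 letters lay in the windows of Mrc1 and Folr2 (19.7% of all windows), and NF-kB letters in those of Cd163 and Mrc1 (17.6%). The TATA box occurred in Ccl8 alone of the 5 (12.4% of all windows), 32 to 27 bases before its start. AP-1 and C/EBP letters were in none of the 5 windows, and in 6.75% and 9.56% of all windows. The Cbr2 window held none of the 6 motifs. Such matches describe the letters and not binding.

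All 5 markers were higher in the label than in either other macrophage label, M2 macrophages with high Cx3cr1 and M1 macrophages, at both days. Levels are given as CPM, the summed counts of the cells of a label scaled to a total of 1000000. Ccl8 stood at 4598 CPM at day 2 (interval 4523 to 4673), against 233 CPM in the high-Cx3cr1 label and 1117 CPM in M1 macrophages. At day 7, Ccl8 was at 1291 CPM, against 62.8 and 273 CPM. The label was thus 4.52-fold above both other labels pooled at day 2 and 5.96-fold above them at day 7, and the counting intervals of the 3 labels did not overlap at either day. Mrc1 was at 1821 CPM at day 2, against 410.3 and 806 CPM, and at 561 CPM at day 7, against 74.2 and 125 CPM. Cbr2 was at 385 CPM at day 2, against 18.4 and 110.5 CPM. At day 7, Cbr2 was at 55.4 CPM in the label and 8.98 CPM in M1 macrophages, and it had no count in 159 high-Cx3cr1 cells, so the label was at least 22.6-fold higher. Cd163 was the scarcest of the 5 in the label. Its level was 169.6 CPM at day 2, against 42.1 CPM in M1 macrophages and no count in 82 high-Cx3cr1 cells, a difference of at least 49.1-fold. At day 7, Cd163 was at 31.2 CPM on 18 counts, against 1.63 and 2.69 CPM. Its log2 ratio to both other labels pooled was then 3.69, and 2.42 after thinning each cell to 2000 counts.

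Folr2 was the marker whose level in the label was nearly equal at the 2 days, at 286 CPM at day 2 (interval 268 to 305) and 294 CPM at day 7 (252 to 342). The other 4 were lower at day 7. Mrc1 was 3.25-fold lower, Ccl8 3.56-fold, Cd163 5.45-fold and Cbr2 6.96-fold. Within the label, the log2 ratio of Cd163 between days was -2.45 (-3.21 to -1.77) on summed counts and -1.29 when every cell had equal weight. For Ccl8 it was -1.83 (-1.94 to -1.73), and -2.93 without cells that hold markers of other cell types. The latter setting leaves out 148 of 242 cells at day 2 and 58 of 105 at day 7 that hold at least 3 counts of such markers. In ratios to the other labels it also leaves out 30 of 82 high-Cx3cr1 and 291 of 468 M1 cells at day 2. At day 7 it leaves out 95 of 159 and 191 of 228, so the mix of the pooled labels changes too. The limit is a fixed number of counts, which deeper cells reach more readily.

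**Figure D1:**
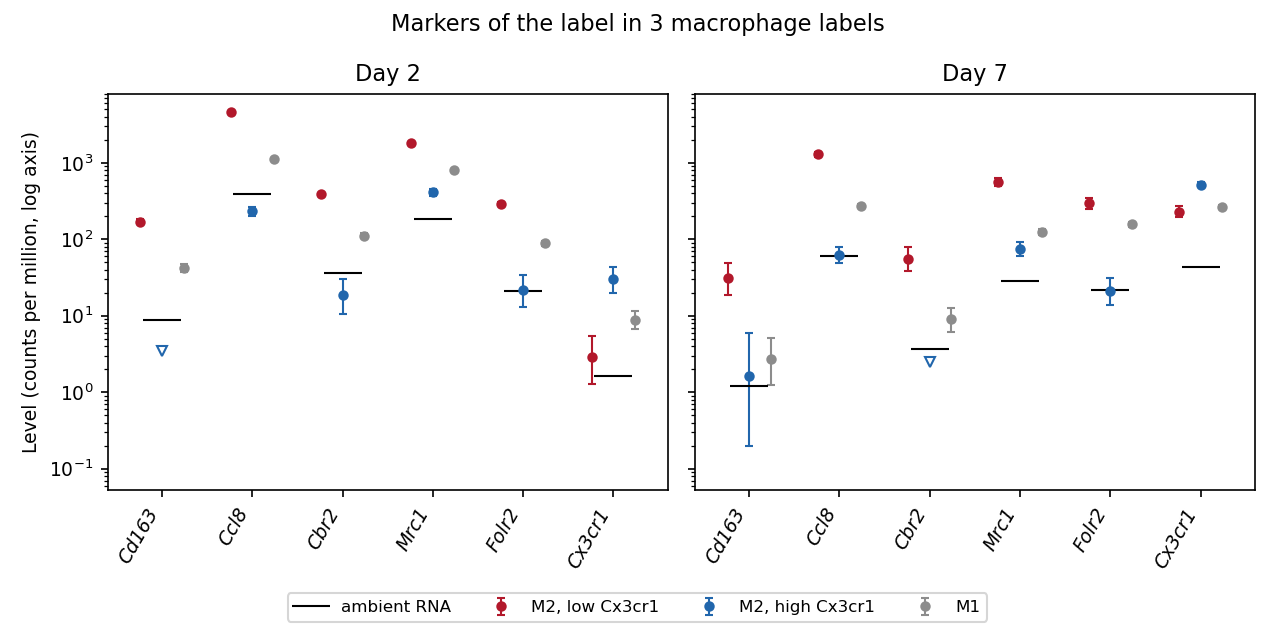
Levels of the 5 markers and of Cx3cr1, in CPM on a log axis, in 3 macrophage labels at day 2 (left) and day 7 (right). Bars are exact 95% counting intervals, open triangles mark the level that 3 counts would give where a label had no count, and black lines mark the level in ambient RNA; the low-Cx3cr1 label lies above both other labels for each of the 5 markers at both days, and below the high-Cx3cr1 label for Cx3cr1.

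Cx3cr1 itself was low in the label only at day 2. It had 9 counts there, 2.85 CPM (1.30 to 5.42), in 6 of 242 cells. The level was 10.5-fold below the 30 CPM of the high-Cx3cr1 label and 3.1-fold below the 8.86 CPM of M1 macrophages. At day 7 it was at 230.2 CPM (193 to 273) in the label, with counts in 44 of 105 cells, and 42.9 CPM in ambient RNA. That was 80.7-fold above day 2. The log2 ratio of 6.33 rests on the 9 counts of day 2, and was 5.10 after thinning each cell to 2000 counts, with the 1 count left at day 2 set to 3, and 5.70 without cells that hold markers of other cell types. The day 7 level was 2.24-fold below the 516 CPM of the high-Cx3cr1 label. The M1 label had 266 CPM at day 7, and the log2 ratio of the low-Cx3cr1 label to it was -0.21 (-0.48 to 0.06), an interval that includes equal levels. Cx3cr1 was also higher at day 7 in the other labels, 17.2-fold in the high-Cx3cr1 label and 30-fold in M1 macrophages. The name of the label thus held against the high-Cx3cr1 label at each day, and did not describe 1 level at both days. Against both other labels pooled the log2 ratio was -1.98 (-3.16 to -0.99) on day 2. On day 7 it was -0.53 (-0.80 to -0.28), or -1.19 without cells that hold markers of other cell types.

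Single cells of the label held different sets of these markers. To compare cells of unequal depth, every cell was thinned to 2000 counts, which left out 1 cell at day 2 and 4 at day 7. After thinning, Mrc1 had a count in 89.2% of the cells at day 2 and in 62.4% at day 7. Cbr2 had one in 41.9% and 11.9%, Ccl8 in 50.6% and 36.6%, Folr2 in 36.5% and 36.6%, and Cd163 in 14.1% and 5.94%. Without thinning the shares were 98.3% and 87.6% for Mrc1 and 34.3% and 8.57% for Cd163, at median depths of 12355 counts per cell at day 2 and 4830 at day 7. Capillary endothelial cells, taken here as a type that should lack these genes, gave thinned shares of 0% to 5.16% at day 2 and of 0% to 0.671% at day 7, at median depths of 6992 and 5444 counts. The share for Ccl8 in these cells was the highest of the 5 at day 2. At least 2 of the 5 markers had a count in 75.1% of thinned cells of the label at day 2 and 43.6% at day 7. The same held for 8.54% and 1.89% of high-Cx3cr1 cells, 23.3% and 15.4% of M1 cells, and for no capillary endothelial cell. The M1 label thus also held cells with several of the markers.

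**Figure D2:**
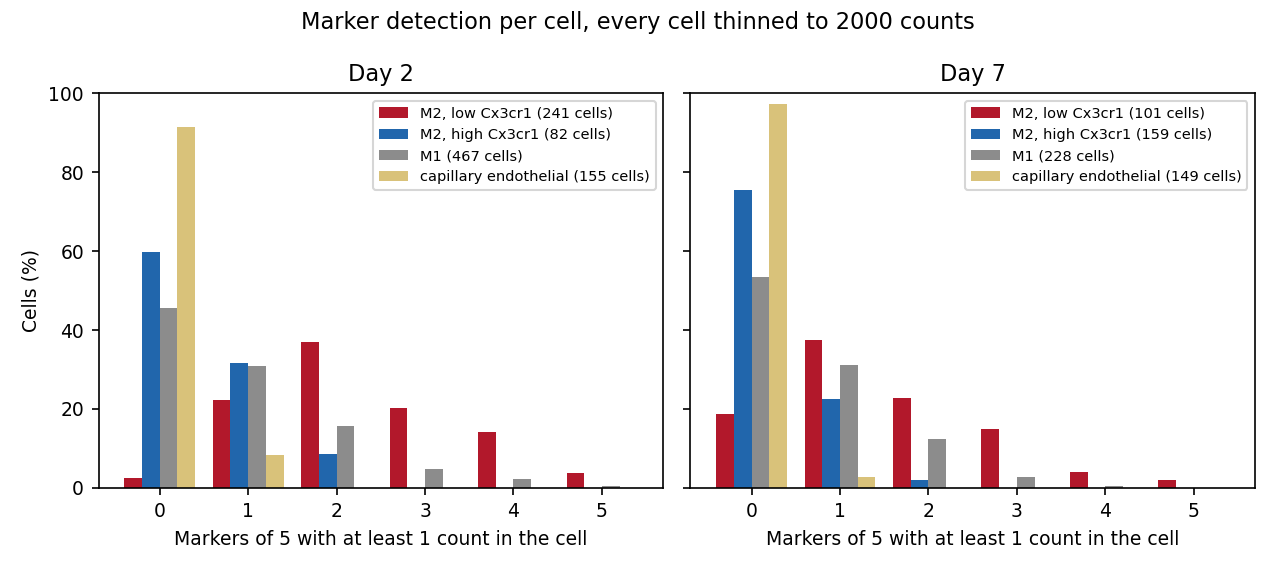
Share of cells (%) by the number of the 5 markers with at least 1 count, after thinning each cell to 2000 counts, at day 2 (left) and day 7 (right). Bars of the low-Cx3cr1 label are highest at 2 markers at day 2 and at 1 at day 7, while most high-Cx3cr1 and capillary endothelial cells hold none.

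Ccl8 counts were concentrated in few cells. At day 2, the 25 cells with most Ccl8 counts held 65.1% of its counts, and at day 7 the top 11 cells held 84.5%. A single cell reached 49209.7 CPM of Ccl8 at day 2, while the median cell had 292 CPM and 149 of 242 cells had any count. Mrc1 was spread more evenly, with 24.4% of its counts in the top 25 cells at day 2 and a median cell at 1725 CPM. Il10, an anti-inflammatory cytokine gene, had counts in 49 of 242 cells at day 2, with 90.6% of them in the top 25. Cells with a thinned count of Cd163 at day 2 (34 cells) had 6765 CPM of Ccl8, 647 CPM of Cbr2 and 353 CPM of Gas6. The 207 cells without one had 3649.8, 353 and 121 CPM of the same genes. H2-Aa, an MHC class II gene, went the other way in these cells, at 176 CPM with and 541 CPM without a Cd163 count. At day 7, the 29 cells with a thinned Cx3cr1 count had 121 CPM of Gas6 on 7 counts, against 347 CPM on 50 counts in the 72 cells without one.

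The label made up 7.61% of 3178 kept cells at day 2 (6.72 to 8.59) and 3.29% of 3196 at day 7 (2.69 to 3.96), a difference of -4.33 percentage points (-5.47 to -3.20). Shares of one cell type move with the others, and 708 kept neutrophils were present at day 2 and 10 at day 7. Among the 3 macrophage labels alone, the share was 30.6% of 792 cells at day 2 and 21.3% of 492 at day 7. The difference was then -9.21 points (-14.1 to -4.18), in the same direction. The libraries share 4 called barcodes, none of them between cells of the label.

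For comparisons across genes, those with a mean of at least 20 CPM in the groups compared were read, and a ratio of at least 2-fold was counted as a rule of size. Labels came from clustering on these same genes, so the differences between labels are a description. The other labels were pooled by summed counts, so M1 macrophages weighed most. They gave 6771396 counts at day 2, beside 867694 from the high-Cx3cr1 label. At day 7 the counts were 3340785 and 1226524, so the mix of the pooled labels differed between days. Cells of the label were also shallower at day 7, with a median of 4830 counts, than high-Cx3cr1 cells (7132 counts) and M1 macrophages (12528 counts), whereas the medians at day 2 were 12355, 10167.5 and 13635.5 counts. At day 2, 49 of 5268 genes were at least 2-fold higher in the label than in the other macrophage labels pooled (0.930%), and 84 were at least 2-fold lower (1.59%). At day 7, 166 of 5278 genes were higher (3.15%) and 132 lower (2.50%), or 144 and 159 with median-of-ratios scaling. Of these, 17 genes were higher at both days, 34.7% of the day 2 genes and 10.2% of the day 7 genes. Only 34 of the 49 and 105 of the 166 were read at both days. The genes lower at both days numbered 16, 19.0% and 12.1%, with 46 of the 84 and 102 of the 132 read at both. No gene was 2-fold higher at one day and 2-fold lower at the other. Of the 4552 genes read at both days, few were 2-fold apart at either. Unrelated lists of these sizes would share hardly any gene, so this absence says little.

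Genes of resident tissue macrophages were the list that stood highest. Of its 29 genes in the table, 18 were read at day 2 and 11 were at least 2-fold higher, none lower, with a median log2 ratio of 1.27 beside 0.05 for all genes. At day 7, 13 of 19 were higher and none lower, with a median of 1.64 beside 0.06. The list was chosen with earlier results of these data known and holds the 5 markers. Its rank is therefore a description and no separate support for the label. Outside the 5 markers, Gas6, a bridging ligand for receptors that take up dead cells, was at 157 CPM in the label at day 2. It was at 1.15 CPM in the high-Cx3cr1 label and 49.6 CPM in M1 macrophages. At day 7 it was at 258 CPM, against 17.1 and 59.3 CPM, with 71.3 CPM in ambient RNA. Sepp1, which encodes selenoprotein P, was 1104 CPM at day 2 and 5242 CPM at day 7, above the other labels pooled by a log2 ratio of 1.27 and 1.30, the latter 0.93 without cells that hold markers of other cell types. Maf, a transcription factor of mature macrophages, was at 453 CPM at day 2 and 630.0 CPM at day 7. Its log2 ratio to the other labels was 0.93 (0.83 to 1.03) on the earlier day and 1.73 (1.55 to 1.91) on the later one. Stab1, a scavenger receptor gene, gave 0.99 (0.88 to 1.09) and 1.64 (1.39 to 1.88). Wwp1, a ubiquitin ligase gene, gave 1.43 and 2.01.

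Several genes often used for long-lived tissue macrophages were nearly absent. Lyve1 had 11 counts at day 2 and 1 at day 7 in the label. Timd4 had 2 counts and 0, and Vsig4 0 and 4. Cd209f, a C-type lectin gene, had 15 counts in 3 cells at day 2 and 14 counts in 3 cells at day 7, and none in either other label.

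Clec10a and Mgl2, closely related galactose-binding lectin genes that may share reads, were prominent at day 7. Clec10a was at 89.4 CPM at day 2, 36.9 CPM in the high-Cx3cr1 label and 45.3 CPM in M1 macrophages, a log2 ratio of 1.01 (0.78 to 1.24) to both pooled. This value for Clec10a was at the 2-fold limit, with 0.96 under median-of-ratios scaling, 0.90 without cells that hold markers of other cell types and 1.67 after thinning each cell to 2000 counts. At day 7 it was at 159 CPM, against 8.97 and 21.6 CPM, and the log2 ratio was 3.13 (2.69 to 3.58). Mgl2 gave 3.03 (2.26 to 3.8) at day 7, on 31 counts in 10 of 105 cells. For Mgl2 thinning gave 2.35, and 4.76 was found without cells that hold markers of other cell types. Fcrls, an Fc receptor-like gene, was higher at both days, at log2 ratios of 1.90 and 1.24. No gene of the list of scavenger and endocytic receptors was 2-fold lower. The numbers 2-fold higher were 5 of 14 read at day 2, Clec10a included, and 6 of 15 at day 7.

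**Figure D3:**
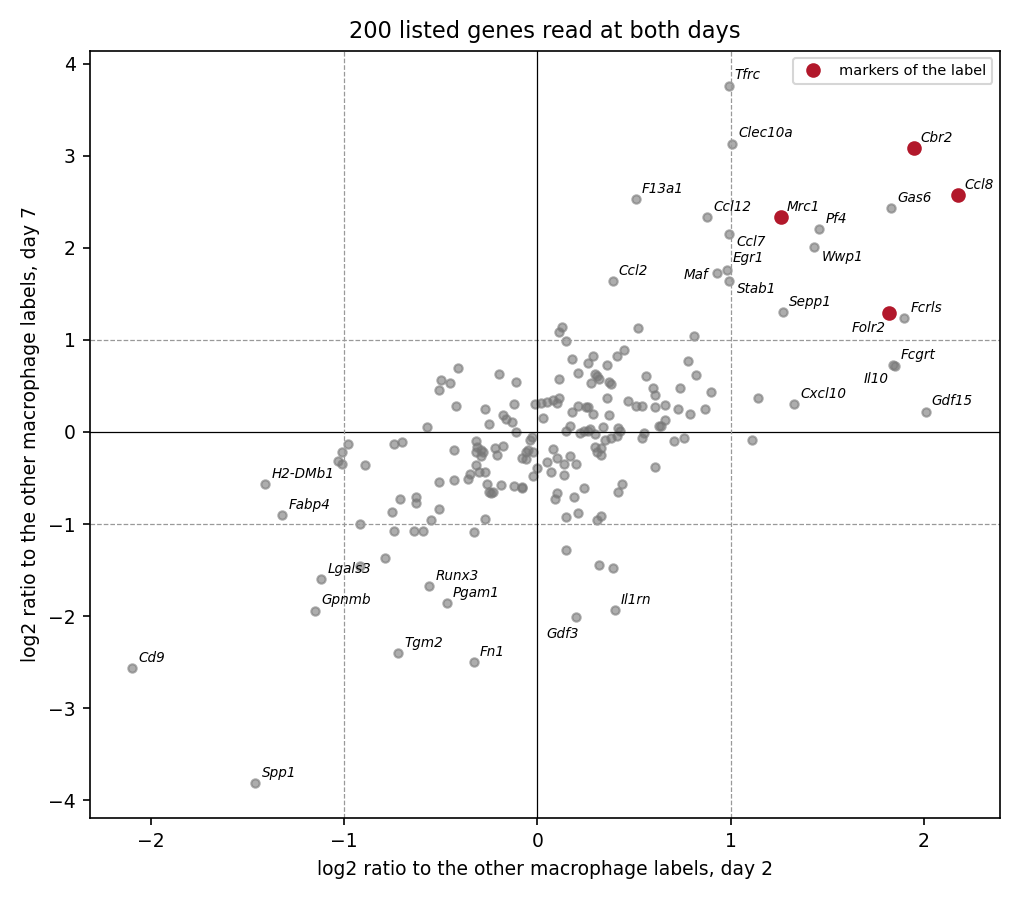
Log2 ratio of the low-Cx3cr1 label to the other macrophage labels pooled, at day 2 (x axis) and day 7 (y axis), for the 200 listed genes read at both days, with counts under 3 set to 3 (points, 1 per gene; dashed lines mark 2-fold). Ccl8, Cbr2, Mrc1, Gas6 and Pf4 lie beyond 2-fold above at both days and Spp1, Cd9, Gpnmb and Lgals3 below; Cd163 is not drawn, since its mean at day 7 was under 20 CPM.

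Of 16 chemokine genes read at each day, 4 were at least 2-fold higher in the label at day 2, with none lower, and 5 at day 7, with 1 lower. One of the 4, the interferon-induced Cxcl10, had a log2 ratio of 1.33, which was 0.66 after thinning each cell to 2000 counts and 0.11 without cells that hold markers of other cell types. Ccl8, Ccl2, Ccl7 and Ccl12 encode chemokines that attract monocytes, and Ccl24 one that attracts eosinophils. Ccl7 was at 3261 CPM at day 2, against 753 CPM in the high-Cx3cr1 label and 1749.6 CPM in M1 macrophages. Ccl2 was at 3400.1 CPM, against 1301 and 2768 CPM, and Ccl12 at 1552 CPM, against 380.3 and 904 CPM. These 3 differences from both labels pooled were under 2-fold at day 2, with log2 ratios of 0.99, 0.39 and 0.88. At day 7, all 3 were at lower levels than at day 2, with larger ratios to the other labels. Ccl7 was at 121 CPM with a log2 ratio of 2.15 (1.70 to 2.58), Ccl12 at 126 CPM with 2.33 (1.88 to 2.76), and Ccl2 at 287 CPM with 1.64 (1.37 to 1.90). The day 7 ratio of Ccl7 was 2.78 after thinning, and that of Ccl12 was 3.06 without cells that hold markers of other cell types. Ccl24 was 363 CPM at day 2, a log2 ratio of 1.85 (1.72 to 1.99) to the other labels, and 22.5 CPM on 13 counts at day 7. Pf4, which encodes platelet factor 4, was at 8886 CPM at day 2, against 453 and 3591 CPM, and at 1104 CPM at day 7, against 75.8 and 301 CPM. The 1 lower at day 7 was Cxcl9, also induced by interferon, at 6.92 CPM against 69.3 and 21.3 CPM.

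**Figure D4:**
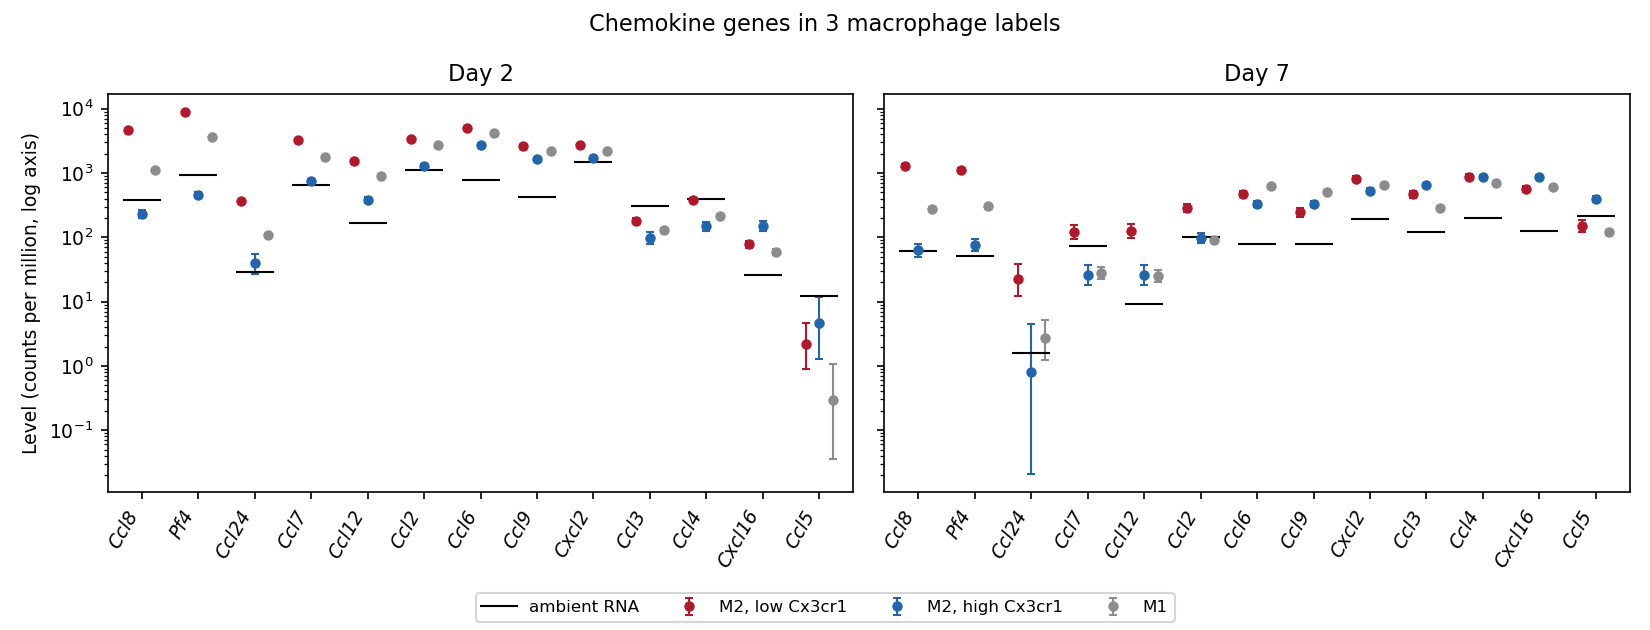
Levels of 13 chemokine genes in CPM on a log axis in the 3 macrophage labels at day 2 (left) and day 7 (right), with exact 95% counting intervals and the ambient RNA level as black lines. The low-Cx3cr1 label is highest for Ccl8, Pf4, Ccl24, Ccl7, Ccl12 and Ccl2 at both days; its levels of all 6 are lower at day 7, while those of Ccl5, Cxcl16, Ccl3 and Ccl4 are higher, with Ccl5 below the ambient level at both days.

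Several genes of lipid-laden macrophages were lower in the label than in the other labels pooled. Spp1, which encodes osteopontin, was at 1423 CPM at day 2, against 2210.5 CPM in the high-Cx3cr1 label and 4135 CPM in M1 macrophages, and at 374 CPM at day 7, against 748 and 6897 CPM. Few cells held most of these counts. In the high-Cx3cr1 label at day 2, 9 of 82 cells held 90.1% of the Spp1 counts, and the median cell was at 74.9 CPM, below the 273 CPM of the median cell in the low-Cx3cr1 label and the 631 CPM in M1 macrophages. The ambient level of Spp1 was 1338 CPM at day 2 and 991 CPM at day 7, so the day 7 level in the label lay below it. Without cells that hold markers of other cell types, the log2 ratio of Spp1 to the pooled labels was -0.66 at day 2 in place of -1.46, and -1.98 at day 7 in place of -3.81. Gpnmb, a transmembrane glycoprotein gene of lysosome-rich macrophages, was at 329 CPM at day 7, against 254 and 1631 CPM. Mmp12, macrophage elastase, had 2 counts in the label at day 7, 3.46 CPM, against 335 CPM in M1 macrophages, a log2 ratio to the pooled labels of -6.19 (-9.24 to -4.34). With counts under 3 set to 3 the ratio of Mmp12 was -5.61, and it was -3.20 after thinning each cell to 2000 counts and -2.45 without cells that hold markers of other cell types. Cd9, a tetraspanin gene, gave log2 ratios to the pooled labels of -2.10 (-2.33 to -1.87) at day 2 and -2.56 (-2.91 to -2.24) at day 7. The day 2 value of Cd9 was -2.85 after thinning and -1.51 without cells that hold markers of other cell types. Trem2, the lipid receptor of such cells, was 287 CPM at day 2 and 722 CPM at day 7. It was 0.15 (0.03 to 0.26) above the pooled labels on the log2 scale at day 2, and its log2 ratio was -0.92 (-1.06 to -0.77) at day 7. The list of Trem2 and lipid handling genes had 5 of 20 genes read 2-fold lower at day 2 and 6 of 21 at day 7, with none higher at either day. Without the same cells, the log2 ratio of Gpnmb at day 2 was -0.52 in place of -1.15, and that of Lgals3 at day 7 was -0.86 in place of -1.60, both under 2-fold. So was Fabp5, a fatty acid binding protein gene, at day 7, with -0.64 in place of -1.44, and after thinning Fabp4 at day 2, with -0.93 in place of -1.32. At day 7, Itgax, which encodes the integrin CD11c, was at 48.5 CPM, against 246 and 383 CPM. Its log2 ratio to the pooled labels was -2.84, and -2.10 without cells that hold markers of other cell types.

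MHC class II genes separated the label from the high-Cx3cr1 label at day 2. H2-Aa was at 469 CPM, against 4173 CPM there and 508 CPM in M1 macrophages, with 350.1 CPM in ambient RNA. Cd74, the invariant chain, was at 1475 CPM, against 9507 and 1555 CPM. In the label, 74.7% of the H2-Aa counts at day 2 came from the 25 cells with most of them. At day 7, H2-Aa stood at 7686 CPM, with 12478 CPM in the high-Cx3cr1 label and 6915 CPM in M1 macrophages, and 96.2% of the cells of the label had a count, beside 18.8% of capillary endothelial cells. Against both labels pooled, 4 of 8 class II genes read were 2-fold lower at day 2 and none of 9 at day 7. Without cells that hold markers of other cell types, H2-Ab1 and H2-Eb1 at day 2 gave -0.33 and -0.29 in place of -1.01 each, under 2-fold. After thinning, H2-DMa was also just under it, at -0.99 in place of -1.03.

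Complement genes differed at day 7. C4b, a classical pathway component, was at 135 CPM, against 14.7 and 20.7 CPM, with 38.1 CPM in ambient RNA. Its log2 ratio to the other labels was 2.83 (2.37 to 3.28), and 1.35 without the cells that hold markers of other cell types. C5ar1, the receptor for C5a, was at 163 CPM, against 74.2 and 73.6 CPM. Among haem and iron genes, the transferrin receptor gene Tfrc was at 41.5 CPM on 24 counts, against 2.45 and 3.29 CPM, and Cp, ceruloplasmin, at 51.9 CPM, against 7.34 and 11.7 CPM. The log2 ratio of Tfrc to the other labels was 3.76, and 2.94 after thinning. Hmox1, haem oxygenase, differed little, at 309.8 CPM against 226 and 249.9 CPM.

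Other genes far apart from the pooled labels had varied roles. At day 2, Gja1, which encodes a gap junction protein, was at 199 CPM, against 10.4 and 51.8 CPM. Igfbp4, an IGF binding protein gene, was at 60.2 CPM, against 8.07 and 15.7 CPM. Il10 was at 101 CPM, against 17.3 and 29.8 CPM, and Gdf15, a stress-induced member of the TGF-beta family, at 83.1 CPM, against 17.3 and 21.1 CPM. Genes that were lower at day 2 included Hp, haptoglobin, at 21.6 CPM against 69.1 and 154 CPM, Gsr, glutathione reductase, at 17.1 CPM against 113 and 142 CPM, and Ly6c2, a marker of inflammatory monocytes, at 55.2 CPM against 141 and 201 CPM. At day 7, F13a1, which encodes the A subunit of coagulation factor XIII, was at 128 CPM, against 13 and 25.4 CPM, and Fxyd2, a regulator of the sodium pump, at 83.1 CPM, against 17.1 and 14.1 CPM. Tgm2, a transglutaminase gene, was at 13.8 CPM at day 7, against 88.9 and 67.3 CPM, and Napsa, an aspartic protease gene, at 43.3 CPM, against 238 and 209.5 CPM. The folds of Gja1, Gdf15, Hp, Gsr, Fxyd2 and Napsa to the pooled labels moved by over 1.5 times after thinning or without cells that hold markers of other cell types, and kept their direction.

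Between day 2 and day 7, 655 of 5472 genes read were at least 2-fold higher at day 7 within the label (12.0%) and 942 at least 2-fold lower (17.2%), so 41.0% of these genes were higher. The median log2 ratio was -0.22. With median-of-ratios scaling, which centres the genes, the numbers were 865 and 623, and 58.1% were higher. Genes whose whole counting interval lay beyond 2-fold numbered 346 and 309.

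Several of the genes with the lowest ratios had high levels at day 2 and few or no counts at day 7. Chil3, a chitinase-like protein gene, was at 446 CPM at day 2 and had 1 count at day 7. Fn1, fibronectin, was at 1337 and 34.6 CPM, Thbs1, thrombospondin, at 1875 and 43.3 CPM, and Timp1, an inhibitor of matrix proteases, at 280.0 and 5.19 CPM. Gja1 had 2 counts at day 7, Rgcc 3 and Pdpn, which encodes podoplanin, 4. Their log2 ratios, with counts under 3 set to 3, were -5.26, -5.49 and -4.87, and after thinning each cell to 2000 counts -3.78, -3.97 and -3.73. The ratios of Chil3 and Timp1, at -6.43 and -5.75, were -5.14 and -4.11 after thinning, and that of Fn1, at -5.27, was -6.10. Vegfa, a vessel growth factor gene, had 242 counts at day 2 and none at day 7, at least 14.8-fold lower. The log2 ratio of Vegfa, with counts under 3 set to 3, was -3.89. It was -2.33 after thinning and -2.47 without cells that hold markers of other cell types. The list of chemokines had the lowest median log2 ratio, -3.01, with 12 of 17 genes read at least 2-fold lower and 4 higher. Without cells that hold markers of other cell types, Cxcl1 and Cxcl2 were no longer 2-fold lower, with -0.75 and -0.91 in place of -2.09 and -1.76. Ccl7 was 26.9-fold lower, Ccl12 12.3-fold and Ccl2 11.8-fold. The log2 ratio of Ccl12 was -3.62, and -3.0 without cells that hold markers of other cell types. The 4 that were higher were Ccl3, Ccl4, Ccl5 and Cxcl16, and Ccl5 was at 149 CPM at day 7 beside 214 CPM in ambient RNA. Inflammatory genes followed, with 8 of 15 lower and none higher (median -1.19), among them Clec4e, a receptor for damaged cells, which was 35.3-fold lower. The log2 ratio of Clec4e was -5.14, and it was -4.33 after thinning and -4.29 without cells that hold markers of other cell types. Ier3, 1 of the 8, fell under 2-fold with median-of-ratios scaling. Glycolysis genes were 7 of 15 lower and none higher (median -0.78), with Gapdh at 769 and 132 CPM. Of the 7, Ldha and Pfkp were under 2-fold with median-of-ratios scaling, at -0.91 and -0.80 in place of -1.13 and -1.02.

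MHC class II genes were 8 of 9 higher at day 7 and none lower, with a median log2 ratio of 3.63, the highest of the 17 lists. H2-Aa was 16.4-fold higher and Cd74 12.4-fold, and Ciita, the class II transactivator, had 1 count at day 2 and 32 at day 7. Ambient H2-Aa was 350.1 CPM at day 2 and 1439.7 CPM at day 7. Apoe, apolipoprotein E, was at 2653 CPM at day 2 and 44946 CPM at day 7, with 713 and 9534 CPM in ambient RNA. The complement gene C1qa was at 1051 and 5788 CPM, with counts in 148 of 242 cells at day 2 and in 105 of 105 at day 7. In capillary endothelial cells, 1.26% and 10.7% had a C1qa count. Igf1, a growth factor that acts on muscle stem cells, was at 16.8 CPM at day 2 and 249 CPM at day 7, 14.8-fold higher. Pltp, a phospholipid transfer protein gene, was 23.8-fold higher, and Axl, a receptor for Gas6, 24.0-fold higher. The log2 ratio of Axl was 4.59, and 3.87 after thinning. Hpgd, which inactivates prostaglandins, had 1 count at day 2 and 88 at day 7. Its log2 ratio was 8.91 (6.39 to 14.23). Gpr34, a lysophosphatidylserine receptor gene, had 6 and 85 counts, and Lag3, a receptor for class II molecules, 1 and 41. Ratios on so few counts depend on the setting, and the log2 ratio of Hpgd with counts under 3 set to 3 was 7.32, or 4.71 after thinning. Those of Gpr34, Lag3 and Ciita were 6.27, 6.22 and 5.86, or 4.76, 3.13 and 3.48 after thinning.

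**Figure D5:**
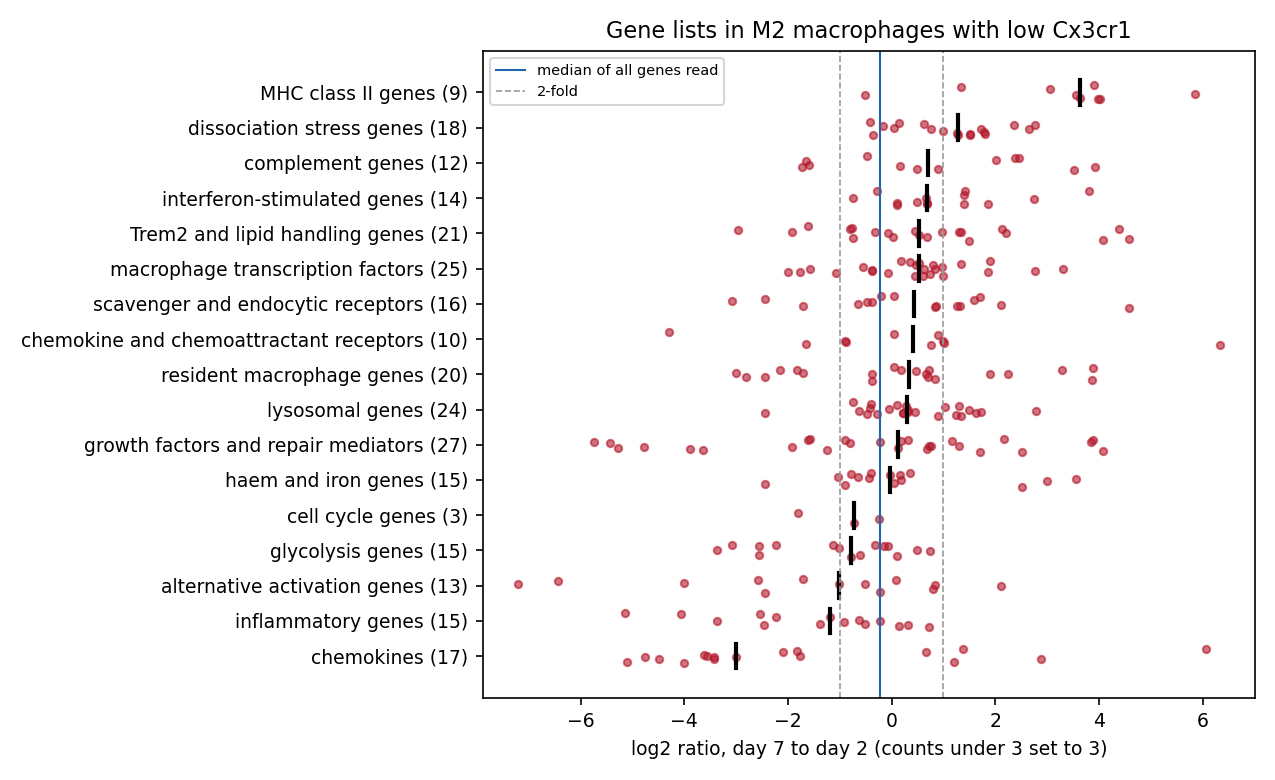
Log2 ratio of day 7 to day 2 within the low-Cx3cr1 label for the genes read of 17 lists (points, 1 per gene; the number read is in brackets), with counts under 3 set to 3, black bars at each list's median, the blue line at the median of all genes and dashed lines at 2-fold. MHC class II genes lie furthest to the right, with a median of 3.63, and chemokines furthest to the left, with a median of -3.01.

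The counts of the remaining lists stand beside shares of 12.0% higher and 17.2% lower over all genes read. Of growth factors and repair mediators, 8 of 27 genes read were higher and 10 lower (median 0.12). Interferon-stimulated genes were 6 of 14 higher and none lower (0.69), complement genes 5 of 12 higher and 3 lower (0.69), and lysosomal genes 8 of 24 higher and 1 lower (0.29). The alternative activation list, which names the genes that type 2 cytokines typically induce, had 1 of 13 genes higher and 7 lower (-1.02). Resident macrophage genes were 5 of 20 higher and 6 lower (0.33), scavenger receptors 6 of 16 higher and 3 lower (0.44), macrophage transcription factors 5 of 25 higher and 4 lower (0.52), and Trem2 and lipid genes 8 of 21 higher and 3 lower (0.53). Chemoattractant receptors were 2 of 10 higher and 2 lower (0.41), and haem and iron genes 3 of 15 higher and 2 lower (-0.03). With so few genes read, the counts of transcription factors, receptors and haem genes were close to the shares over all genes. They are no result about these lists. Some of these calls lay near the limit. In 1 or more of 6 alternative settings, Vegfb, Gdf3 and Osm among growth factors, the receptor gene Ccrl2, the haem gene Nfe2l2, the transcription factor gene Runx3, and Retnla and Cd9 in the alternative activation and lipid lists fell under 2-fold. Ccrl2 went from 1.02 to 0.19, Vegfb from 1.16 to 0.14, Gdf3 from -1.62 to -0.76 and Nfe2l2 from -1.03 to -0.78 without cells that hold markers of other cell types. Of 21 cell cycle genes in the table, 3 were read and 1, Pcna, was lower (-0.72). Mki67, a gene of dividing cells, had 12 counts at day 2 and 6 at day 7. Dissociation stress genes, which respond to the release of cells from tissue, were 10 of 18 higher and none lower (1.28), with Jun at 333 and 1724 CPM and Hspa1a, which may share reads with its copy Hspa1b, at 1173 and 4100.1 CPM. The part of the dissociation in these ratios was not tested.

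The direction of the day difference was alike in the other macrophage labels for several of these genes. Apoe was at 2368 and 50135 CPM in the high-Cx3cr1 label and at 2273 and 43677 CPM in M1 macrophages. The summed level of Spp1 was lower at day 7 in the label and in the high-Cx3cr1 label, although the median cell of the latter was at 74.9 CPM at day 2 and 123 CPM at day 7. In M1 macrophages its summed level was higher at day 7, where 23 of 228 cells held 78.8% of the counts, while the median M1 cell was at 631 CPM at day 2 and 585 CPM at day 7. H2-Aa was at 4173 and 12478 CPM in the high-Cx3cr1 label, beside 469 and 7686 CPM in the low-Cx3cr1 label. These differences between labels were not tested.

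At least 3 counts of markers of other cell types were found in 61.2% of the cells of the label at day 2 and 55.2% at day 7. Of the 9 macrophage markers, all were above 3 counts at both days, with summed levels of 7212 CPM at day 2 and 21266 CPM at day 7. Monocyte markers summed to 3048 CPM at day 2, with 8 of 9 genes above 3 counts, beside 3905 CPM in the high-Cx3cr1 label, 4671 CPM in M1 macrophages and 1211 CPM in ambient RNA. At day 7 they summed to 689 CPM, with 5 of 9 genes above 3 counts, beside 1068 CPM in ambient RNA. T cell markers summed to 0.317 CPM at day 2 and 69.2 CPM at day 7, where 1 of 6 was above 3 counts and Cd3d and Cd3g were at 0, natural killer cell markers to 0 and 10.4 CPM, and dendritic cell markers to 15.9 and 129.8 CPM. Genes of fibro-adipogenic progenitors summed to 248 and 564 CPM, beside 183 to 414 CPM in the other macrophage labels and 1157 and 12632 CPM in ambient RNA. Myofibre genes summed to 27.3 and 827 CPM, beside 683 and 24889.6 CPM in ambient RNA. Col1a1, Mgp and H19, genes of stromal or muscle cells, were among the 10 genes with the largest day ratios, at 72.7, 74.4 and 64.0 CPM at day 7, while ambient RNA held 2469.7, 1252 and 339 CPM of them. With the SoupX-corrected values, the log2 ratio of Col1a1 was 3.07 in place of 6.26, and that of Mgp 4.91 in place of 6.29. Without cells that hold markers of other cell types, those of Col1a1 and Mgp were 3.43 and 4.53. That of H19 was then 4.33 in place of 6.07, and 2.84 after thinning. The part of ambient RNA in these ratios was not tested. Haemoglobin genes had 1321 counts in the label at day 2, of which 1 cell held 1289.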

How the data were processed

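Single-cell 3' libraries (10x Genomics v3) of 2 injured tibialis anterior muscles were read from the deposited matrices. The authors aligned reads to mm10 and counted unique transcripts with Cell Ranger, whose version is 3.1.0 in the submitters' processing notes and 3.0.1 in the matrix headers. The deposited counts are uncorrected unique molecular identifier (UMI) counts per gene and barcode. The authors also deposited estimated counts, in which SoupX had removed an estimate of ambient RNA, and a table of cell types. Per the methods, doublets were removed by the authors with DoubletFinder before clustering, and no doublet caller was run here. Strand use in counting is not given in the sources used here.

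Cells had to have at least 750 genes, 1000 transcripts and at most 30% mitochondrial transcripts in the SoupX values. Called barcodes numbered 4836 at day 2 and 4889 at day 7. Cells of the label held 3153695 summed counts at day 2 (median 12355 per cell) and 577784 at day 7 (median 4830), so 3 counts were worth 0.951 and 5.19 CPM. Ambient RNA was the sum of barcodes with 1 to 100 counts. Levels carry exact Poisson intervals, shares Clopper-Pearson intervals, ratios exact conditional binomial intervals and differences of shares square-and-add intervals. With no replicate there was no test. Genes with a mean of at least 20 CPM were read, and counts under 3 were set to 3 when they were counted and ranked. A fold against a label without counts uses 3 counts for that label.

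Named genes were the 10 largest and 10 smallest ratios of each of 3 comparisons among genes of at least 20 CPM on average found in at least 20% of the cells of the higher group, without mitochondrial, ribosomal protein, haemoglobin, myofibre, Xist and Y-linked genes. Cx3cr1, the 5 markers and from each of 17 lists up to 6 members at least 2-fold apart and up to 2 of the highest others were added. Genes named at low counts, within single cells or as markers of other cells were chosen after their values were seen. A gene that the rule names is not reported here. The members and lists were chosen with earlier results of these data known. Gene positions are from GENCODE vM21, which holds 27645 of the 27998 gene identifiers. Calculations used Python 3.11.15, NumPy 2.4.6 and SciPy 1.17.1, and the steps were tested on simulated data.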

Additional observations from a re-analysis of the deposited data

Results flagged for a closer look

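Called barcodes that met the quality limits but were not in the deposited cell table also held the markers of the label, and such barcodes enter no comparison above. Counts of at least 3 of the 5 markers Cd163, Ccl8, Cbr2, Mrc1 and Folr2 were present in 101 of 680 such barcodes at day 2 (14.9%, 12.3 to 17.8) and in 9 of 477 at day 7 (1.89%, 0.866 to 3.55). The same held for 78.1% and 41.0% of cells of the label, for 27.1% and 13.2% of the other macrophage labels, and for 0 of 159 and 0 of 149 capillary endothelial cells. Their median depths were 4546 counts at day 2 and 2879 at day 7. Why these barcodes are not in the table was not tested.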

How the results depend on the processing

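No paired analysis was possible because each time point had 1 library. Of the 143, 44 and 55 genes examined between days and against the other labels at day 2 and day 7 none that was 2-fold apart changed direction under an alternative, but sizes moved. Of those at least 2-fold apart, 14 of 142, 8 of 43 and 16 of 53 fell under 2-fold in 1 or more of 6 settings. Folr2, nearly equal between days, changed sign under 1 setting. Thinning put the log2 ratio outside its counting interval for 55, 29 and 18 of the genes examined, and leaving out cells that hold other markers did so for 66, 31 and 28. The share of the label kept its order between days, at 18.7% and 13.9% of monocytes and macrophages, and at 2.96% and 1.47% without cells that hold at least 3 counts of markers of other cell types. Genes at least 2-fold higher at day 7 numbered 655, and 1449 with a filter of 5 CPM, 3056 with no filter and 346 by the whole interval. Those lower numbered 942, and 623 with median-of-ratios scaling and 309 by the whole interval. Against the other labels at day 2, the 49 higher genes became 84 with every cell at equal weight, 124 at 5 CPM, 1057 with no filter, 163 after thinning, 143 without cells that hold other markers and 90 with the other labels at equal weight. The 84 lower genes became 184 at 5 CPM, 402 with no filter, 52 by the whole interval, 170 after thinning and 163 without those cells. At day 7, the 166 higher genes became 547 at 5 CPM, 2955 with no filter, 45 by the whole interval, 446 after thinning and 438 without those cells. The 132 lower genes became 374 at 5 CPM and with no filter, 30 by the whole interval, 328 after thinning and 300 without those cells. The filters test more genes and thinning leaves fewer counts. Setting counts under 3 to 3 gives 5.19 CPM in the label at day 7 and 0.951 CPM at day 2. With no filter, a gene with 3 counts at day 2 and none at day 7 was thus counted as higher at day 7. The same rule acts on the label against the pooled labels, which hold more counts. Other causes were not tested. SoupX values gave 637 and 967 between days, 53 and 85 at day 2 and 171 and 140 at day 7. Depth limits the day 7 cells most, where 3 counts are 5.19 CPM.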
